A study of Mus musculus with 6 samples.

Results

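The genes described here encode 10 receptors through which T cells sense lipids and nucleotides in their surroundings: S1pr1, S1pr4, P2rx4, P2rx7, P2ry10, Gpr18, Gpr132, Gpr174, Gpr183 and Ptger4. They were taken by symbol, and all 10 of 10 symbols were found among the 11162 genes of the deposited table. RNA had been sequenced from naive CD8 T cells of mouse spleen, in 3 libraries of cells bright for a Nur77-GFP reporter (GFP-hi) and 3 libraries of dim cells (GFP-lo). Both groups came from mice with the transgene Tg(Nr4a1-EGFP)GY139Gsat, in which the control region of Nr4a1 drives green fluorescent protein, and both were sorted as naive cells (among other gates CD8+, CD44lo and Qa2hi) with the OT-I receptor. OT-I is a transgenic T-cell receptor, so all cells shared 1 specificity, and the groups differed in reporter brightness alone as far as the labels say. Age and number of mice were not given in the sources used here. The p-values therefore measure the spread between these 3 and 3 samples, which may be technical.

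Most of these receptors are G-protein coupled. S1pr1 and S1pr4 bind sphingosine 1-phosphate, a lipid that is abundant in blood and lymph and scarce inside lymphoid tissue, and S1pr1 is the receptor that T cells need to leave lymph nodes and thymus. P2ry10 and Gpr174 respond to lysophosphatidylserine, Gpr183 (also called EBI2) guides cells along oxysterol gradients, and Ptger4 (EP4) raises cyclic AMP when it binds prostaglandin E2. Gpr132 has been linked to lysophospholipids, oxidized fatty acids and protons, and Gpr18 is a lymphocyte receptor whose lipid ligands are debated. P2rx4 and P2rx7 are not G-protein coupled. They are channels that open when extracellular ATP binds, and strong stimulation of P2rx7 leads to death of T cells.

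Among the 10 genes, Gpr132 was lower in GFP-hi cells, and it was the 1 gene with a limma adjusted p under 0.05. P2rx7 had higher values in each GFP-hi library than in any GFP-lo library but did not pass (limma adjusted p = 0.057). For the other 8 genes the groups overlapped. An unadjusted limma p under 0.05 was reached by 2 of the 10, against 20.2% of all tested genes. The share of all 9351 tested genes with an adjusted p under 0.05 was 3.95% (369 genes). Split by direction, 2.46% of all tested genes were called higher and 1.49% lower in GFP-hi. The split was 230 higher and 139 lower, and it was 203 and 187 after trimmed mean of M values scaling. Groups without overlap were found for 2 of the 10 receptor genes and for 26.9% of all tested genes, so separate groups were no more common among the receptors than in general. By direction, 1 of 10 was separate and higher in GFP-hi, against 17.1% of all tested genes, and 1 of 10 was separate and lower, against 9.84%. The log2 fold change was negative for 8 of the 10 and positive for 2, with a median of -0.07, against a median of 0.02 over all tested genes, 4164 of which were negative.

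**Figure D1:**
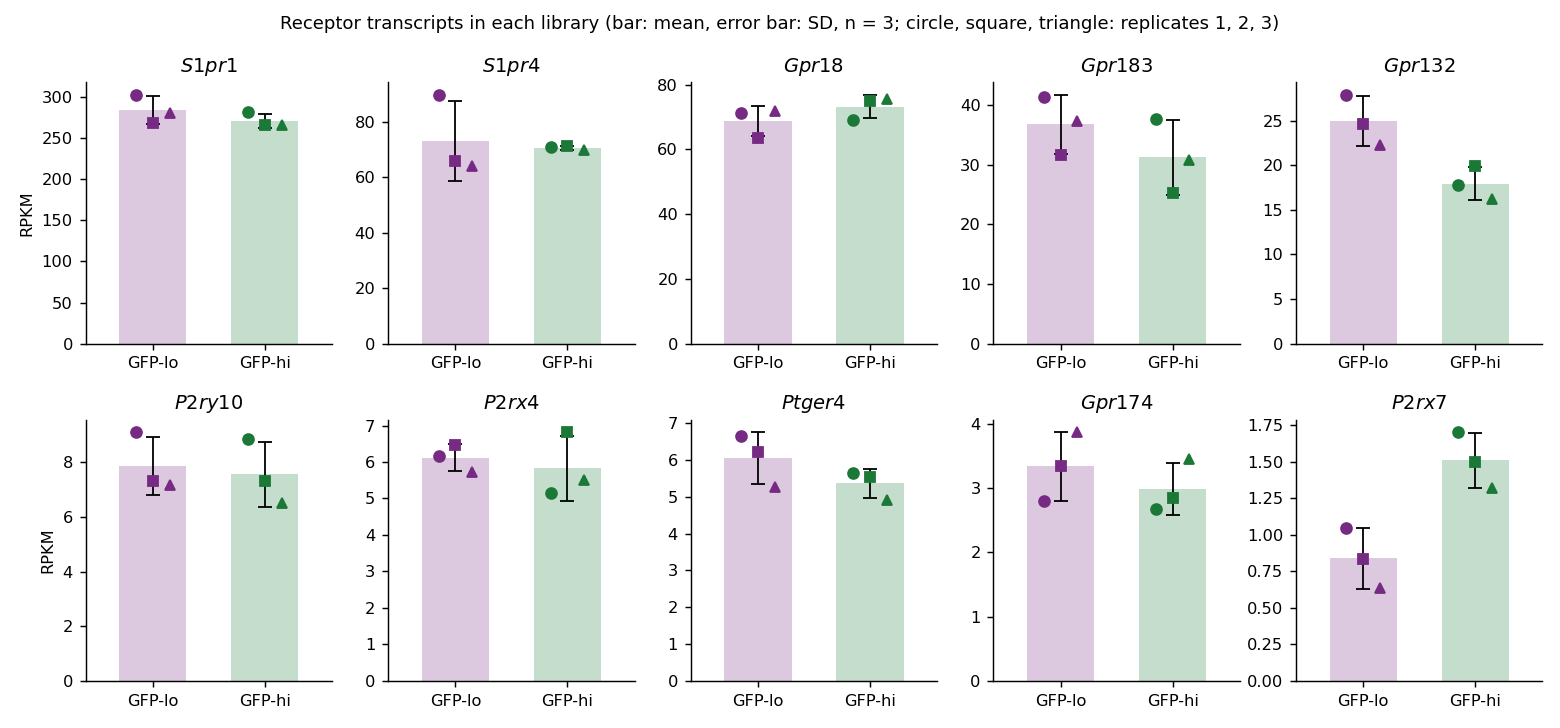
RPKM of each receptor gene (vertical axes start at 0 and differ in scale) in the 3 GFP-lo libraries (purple) and the 3 GFP-hi libraries (green), with bars for the mean and error bars for the SD. The groups are apart for Gpr132, lower in GFP-hi, and for P2rx7, higher in GFP-hi, and overlap for the other 8 genes.

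Values are RPKM, reads scaled to gene length and to library depth, so levels of different genes can be set side by side. Differences are log2 fold changes of GFP-hi over GFP-lo on the log2(RPKM + 1) scale, and the change of a gene at low RPKM appears smaller on it than it is. A gene was called different when its limma adjusted p was under 0.05. The libraries held 26170000 to 35940000 reads, as recovered from the steps of low values, so an RPKM of 1 stood for 26.2 to 35.9 reads per kilobase of transcript. All 11 naive CD8 T cell markers checked, among them Cd8a, Cd3e and Ccr7, had values, and their summed RPKM was 2602 to 2807 in GFP-hi and 2682 to 2939 in GFP-lo libraries. Of these 11, Il7r alone was called different, and its values stand with those of the egress genes. The table gave values for 3 of 10 B cell, 3 of 12 myeloid, 2 of 6 CD4 T cell, 2 of 7 erythroid, 0 of 6 NK cell and 0 of 5 platelet markers. Of the B cell genes, Cd79b was at 10.6 to 14.1 RPKM, Ms4a1 at most 0.597 RPKM and Cd22 at most 0.394 RPKM. Libraries GFP-hi 2 and GFP-lo 2 stood apart in the heat-shock genes Hspa1a, with 1100 and 1234 RPKM against at most 235 elsewhere, and Hspa1b, with 1904 and 2133 RPKM against at most 503. The median of 41 olfactory and vomeronasal receptor genes was 0.037 and 0.038 RPKM in GFP-hi 2 and GFP-lo 1, against 0.263 to 0.583 RPKM in the other libraries. Ccr7 was highest in GFP-hi 1 and GFP-lo 1, with 429 and 516 RPKM against 233 to 264 RPKM elsewhere. Whether such libraries share an animal or a sort was not given in the sources used here.

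The levels of the receptor genes spanned a wide range. S1pr1 had a mean of 278 RPKM over the 6 libraries, more than 99.6% of all listed genes. S1pr4 (71.8 RPKM) and Gpr18 (71.0 RPKM) followed, with ranges over the libraries that overlapped, so their order was not resolved. Gpr183 (34.0 RPKM) came next, and its range of 25.3 to 41.5 RPKM overlapped that of Gpr132 (mean 21.4 RPKM, range 16.2 to 27.9 RPKM). P2ry10 (7.71 RPKM), P2rx4 (5.97 RPKM) and Ptger4 (5.71 RPKM) lay close to the middle of the listed genes and overlapped with their neighbours in this order. Gpr174 (3.16 RPKM) and P2rx7 (1.17 RPKM) were the lowest, each without overlap with the gene above it. All 10 genes passed the filter of a mean of at least 1 RPKM, P2rx7 by the smallest margin. The GFP-lo mean of P2rx7, 0.838 RPKM, lay under that limit, so the gene passed it through its GFP-hi values.

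Gpr132 (Entrez 56696, chr12:112850873-112868228, minus strand, GRCm38) had 17.7, 19.9 and 16.2 RPKM in GFP-hi and 27.9, 24.6 and 22.3 RPKM in GFP-lo libraries. Every GFP-lo library was above every GFP-hi library. The GFP-hi mean of 17.9 ± 1.85 RPKM was 0.719 times the GFP-lo mean of 24.9 ± 2.82 RPKM (SD, n = 3 each). On the log2 scale Gpr132 fell by 0.45 ± 0.097 (standard error), and the 95% limits were -0.68 and -0.23 (limma, adjusted p = 0.045). In bulk RNA, fewer cells with the transcript and less of it per cell cannot be told apart. The call lay close to the threshold and rested on most of the libraries. With GFP-hi 2 left out it held (limma, adjusted p = 0.032). Leaving out GFP-hi 1 raised the adjusted p to 0.12, and leaving out GFP-hi 3 raised it to 0.13. For GFP-lo 1, GFP-lo 2 and GFP-lo 3 the limma adjusted p was 0.11, 0.13 and 0.055. Across these 6 fits the log2 fold change lay between -0.53 and -0.37. Over all 18 alternative fits the sign was negative in 18 and the call held in 9, with adjusted p values from 0.0036 to 0.13.

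Within the 4 libraries with lower heat-shock genes, the log2 fold change of Gpr132 was -0.53 (limma, adjusted p = 0.11), and within the 4 libraries with more nasal receptor reads it was -0.44 (limma, adjusted p = 0.027). The 2 CD4 T cell markers with values went opposite ways. Cd40lg had 16.5, 22.7 and 14.2 RPKM in GFP-hi and 37.0, 46.8 and 35.4 RPKM in GFP-lo libraries (limma, adjusted p = 0.011), which is the direction of Gpr132. Ctla4 had 3.09, 2.89 and 1.63 RPKM in GFP-hi and 1.85, 1.35 and 1.07 RPKM in GFP-lo libraries (limma, adjusted p = 0.16). The other CD4 T cell markers checked, Cd4, Zbtb7b, Foxp3 and Il2ra, were not among the listed genes. The sum of Cd40lg and Ctla4, most of it Cd40lg, was 15.8 to 25.6 RPKM in GFP-hi and 36.5 to 48.2 RPKM in GFP-lo libraries. Their part in the result was not tested.

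P2rx7 (Entrez 18439, chr5:122643911-122691432, plus strand, GRCm38) had 1.70, 1.50 and 1.32 RPKM in GFP-hi and 1.05, 0.834 and 0.633 RPKM in GFP-lo libraries. Every GFP-hi library was above every GFP-lo library. The GFP-hi mean of 1.51 ± 0.190 RPKM was 1.80 times the GFP-lo mean of 0.838 ± 0.207 RPKM (SD, n = 3 each). On the log2 scale the difference was 0.45 ± 0.10 (standard error) with 95% limits of 0.21 and 0.69, and it did not pass after adjustment over all genes (limma, unadjusted p = 0.0025, adjusted p = 0.057). The choice of pseudocount set much of its size, which was 0.59 with a pseudocount of 0.5 and 0.80 with 0.1 (limma, adjusted p = 0.059 and 0.065). Its sign was positive in all 17 alternative fits that tested it, and 3 of these called it, with adjusted p values from 0.016 to 0.23 over the 17.

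The reads behind P2rx7 were few, between 16.6 per kilobase of transcript in GFP-lo 3 and 50.9 in GFP-hi 2. With the 4 libraries of lower heat-shock genes its log2 fold change was 0.45 (limma, adjusted p = 0.23), and with the 4 libraries of more nasal receptor reads it was 0.53 (limma, adjusted p = 0.058). The B cell markers with values summed to 12.6 to 14.2 RPKM in GFP-hi and 11.0 to 11.4 RPKM in GFP-lo libraries, nearly all of it Cd79b, and the erythroid markers to 4.36 to 5.74 and 2.38 to 3.55 RPKM. Their part in the P2rx7 values was not tested. P2rx7 and P2rx4 lie near each other on chromosome 5, and P2rx4 gave no such separation between the groups.

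Stretches before annotated starts of these genes are shown because Gpr132 and P2rx7 were the 2 receptor genes whose groups did not overlap. Each runs 5′ to 3′ along the gene's strand from 250 to 51 bases before the RefSeq start (GRCm38.p6), at chr12:112860967-112861166 for Gpr132 and at chr5:122643677-122643876 for the first P2rx7 start. The Gpr132 window lies inside the gene's GENCODE span given above, downstream of the 5′ end of that span. Capitals mark a match to the AP-1 site, which Fos and Jun proteins bind.
Gpr132: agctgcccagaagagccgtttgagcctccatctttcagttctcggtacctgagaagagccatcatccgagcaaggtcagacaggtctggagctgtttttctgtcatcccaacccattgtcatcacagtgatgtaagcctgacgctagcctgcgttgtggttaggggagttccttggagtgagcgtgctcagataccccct
P2rx7: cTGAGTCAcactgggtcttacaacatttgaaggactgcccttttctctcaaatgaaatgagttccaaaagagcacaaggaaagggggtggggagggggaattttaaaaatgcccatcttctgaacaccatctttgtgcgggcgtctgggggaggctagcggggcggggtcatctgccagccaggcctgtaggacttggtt

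Both strands of the 11 windows found for 9 of the receptor genes were searched for letters bound by 4 factor families. No window was found for S1pr1, so it was not searched. The AP-1 letters TGACTCA (on the other strand TGAGTCA) occurred in the window of P2rx7, with their first base 249 bases before the start, and in 3.61% of 32851 windows of the same length over all genes. The letters AAAGGTCA, which Nr4a proteins such as Nur77 bind as monomers, occurred in 0 of the 11 windows and in 1.08% of all windows. The Foxo letters TGTTTAC occurred in 0 of the 11 and in 2.58% of all windows. The short core CACCC of Kruppel-like factors occurred in windows of 4 of the 9 receptor genes searched (Gpr174, P2rx7, Ptger4 and S1pr4), and in both windows of P2rx7. It occurred in 44.4% of all windows, a share that counts windows and not genes. The core does not overlap the other motifs by letters. A match of letters describes the window and shows no binding.

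Of the receptor genes described here, S1pr1 and S1pr4 encode sphingosine 1-phosphate receptors, and neither was called different. S1pr1 (Entrez 13609, chromosome 3) had 282, 267 and 267 RPKM in GFP-hi and 303, 269 and 281 RPKM in GFP-lo libraries. The groups overlapped, and the log2 fold change was -0.07 (limma, adjusted p = 0.62) with a 95% interval from -0.21 to 0.08, that is from 0.865-fold to 1.06-fold on this scale. S1pr4 (Entrez 13611, chromosome 10) had 70.8, 71.2 and 69.7 RPKM in GFP-hi and 89.7, 65.7 and 63.9 RPKM in GFP-lo libraries. Its GFP-hi libraries lay close to their mean of 70.5 RPKM (SD 0.787 RPKM), whereas GFP-lo 1 was above all other libraries and the GFP-lo SD was 14.4 RPKM. The log2 fold change of S1pr4 was -0.03 (limma, adjusted p = 0.90, 95% interval from -0.31 to 0.24), and it was 0.12 with GFP-lo 1 left out (limma, adjusted p = 0.25).

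The same library led most of the receptor genes. GFP-lo 1 was the highest of the 6 libraries for 6 receptor genes (S1pr1, S1pr4, P2ry10, Gpr132, Gpr183 and Ptger4) and for 21.2% of all tested genes. The remaining libraries were highest for at most 1 receptor gene each. With GFP-lo 1 left out, the log2 fold change of Gpr132 was -0.37 (limma, adjusted p = 0.11) and that of Gpr183 was -0.15 (limma, adjusted p = 0.66).

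The lysophosphatidylserine receptors P2ry10 (Entrez 78826) and Gpr174 (Entrez 213439) both lie on the X chromosome. P2ry10 had 8.84, 7.30 and 6.52 RPKM in GFP-hi and 9.10, 7.32 and 7.17 RPKM in GFP-lo libraries. GFP-hi 1 and GFP-lo 1 were the highest libraries of their groups, and the log2 fold change was -0.05 (limma, adjusted p = 0.85, 95% interval from -0.32 to 0.22). Of the 50-base stretches of its transcripts, 3.79% also occur in its neighbour P2ry10b, so the authors' counting could have split some reads between them. P2ry10b had 1.38 to 1.63 RPKM in GFP-hi and 1.67 to 1.87 RPKM in GFP-lo libraries (log2 fold change -0.13, limma, adjusted p = 0.39). Gpr174 had 2.67, 2.85 and 3.45 RPKM in GFP-hi and 2.80, 3.34 and 3.87 RPKM in GFP-lo libraries. The groups overlapped (log2 fold change -0.12, limma, adjusted p = 0.61, 95% interval from -0.37 to 0.14).

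Gpr183 (Entrez 321019) and Gpr18 (Entrez 110168) are neighbours on chromosome 14, and both lie inside Ubac2, a gene on the opposite strand. Gpr183 had 37.7, 25.3 and 30.7 RPKM in GFP-hi and 41.5, 31.6 and 37.4 RPKM in GFP-lo libraries. The GFP-hi mean of 31.2 ± 6.23 RPKM and the GFP-lo mean of 36.8 ± 4.94 RPKM (SD, n = 3 each) came from overlapping groups, and the difference did not pass (log2 fold change -0.24, limma, adjusted p = 0.41). Its 95% interval from -0.58 to 0.10 was the widest of the 10 and leaves room for a fall as large as that of Gpr132. The lowest Gpr183 values of the groups were in GFP-hi 2 and GFP-lo 2, the libraries with high heat-shock genes, and among the other 4 libraries the log2 fold change was -0.20 (limma, adjusted p = 0.43). It was -0.01 (limma, adjusted p = 0.96) among the 4 libraries with more nasal receptor reads. With GFP-hi 1 left out it was -0.38 (limma, adjusted p = 0.19), and with GFP-hi 2 left out it was -0.10 (limma, adjusted p = 0.72).

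Gpr18 had 69.0, 75.0 and 75.5 RPKM in GFP-hi and 71.1, 63.5 and 71.8 RPKM in GFP-lo libraries. It was 1 of the 2 receptor genes with a positive fold change, at 0.09 on the log2 scale (limma, adjusted p = 0.52, 95% interval from -0.07 to 0.24), and its groups overlapped. The library method, SMART-seq v4 cDNA with Nextera XT, does not mark the strand, so reads from unspliced Ubac2 RNA cannot be told from those of the receptors inside it. Ubac2 had 71.4 to 80.2 RPKM in GFP-hi and 70.8 to 74.1 RPKM in GFP-lo libraries (log2 fold change 0.06, limma, adjusted p = 0.59). No exon of Ubac2 overlaps an exon of Gpr18 or Gpr183 in GENCODE M21.

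Ptger4 (Entrez 19219, chromosome 15) had 5.66, 5.53 and 4.91 RPKM in GFP-hi and 6.65, 6.23 and 5.27 RPKM in GFP-lo libraries. The groups overlapped through a single GFP-lo library, and the log2 fold change was -0.14 (limma, adjusted p = 0.42, 95% interval from -0.35 to 0.06). Its exons overlap those of Ttc33 on the opposite strand, and 14.4% of its 50-base stretches are shared with Ttc33 and the pseudogene Gm15937, which makes the values of Ptger4 uncertain. Ttc33 had 12.2 to 14.3 RPKM in GFP-hi and 11.9 to 12.6 RPKM in GFP-lo libraries (log2 fold change 0.08, limma, adjusted p = 0.60). Ptger2, a further receptor for prostaglandin E2, was looked up after its values were seen, and had 1.98, 2.22 and 1.72 RPKM in GFP-hi and 1.42, 0.898 and 0.581 RPKM in GFP-lo libraries. Its groups did not overlap, and it did not pass (log2 fold change 0.62, standard error 0.15, limma, adjusted p = 0.066). It passed with GFP-lo 1 left out (limma, adjusted p = 0.033), and in the other 5 such fits the adjusted p ran up to 0.18. Ptger2 also passed without the pair low in nasal receptor reads (limma, adjusted p = 0.030) and not in the 4 libraries with lower heat-shock genes (0.29). The GFP-lo mean of Ptger2, 0.966 RPKM, lay under the filter of 1 RPKM, which the gene met through its GFP-hi values.

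P2rx4 (Entrez 18438) had 5.16, 6.82 and 5.50 RPKM in GFP-hi and 6.15, 6.47 and 5.73 RPKM in GFP-lo libraries. GFP-hi 2 and GFP-lo 2 held the highest values of their groups, and the groups overlapped fully. The log2 fold change was -0.07 (limma, adjusted p = 0.76, 95% interval from -0.29 to 0.15). The intervals of P2rx4 and P2rx7 do not overlap, although the difference between these channels was not tested as such.

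**Figure D2:**
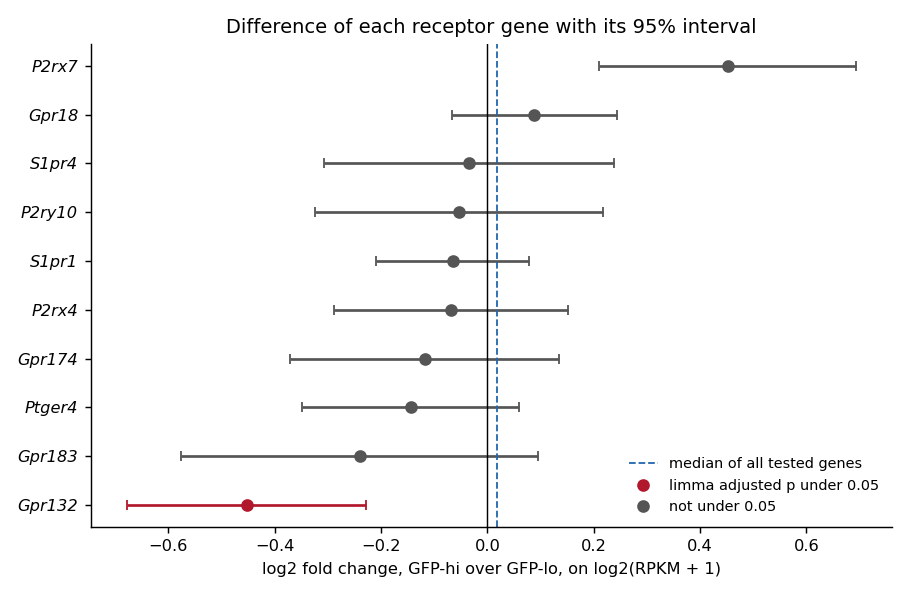
Log2 fold change of GFP-hi over GFP-lo on log2(RPKM + 1) for each receptor gene, with its 95% interval from limma over 3 and 3 libraries; the dashed line is the median of all tested genes. The intervals of Gpr132 (-0.68 to -0.23) and P2rx7 (0.21 to 0.69) leave out 0, and only Gpr132 (red) has an adjusted p under 0.05.

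**Figure D3:**
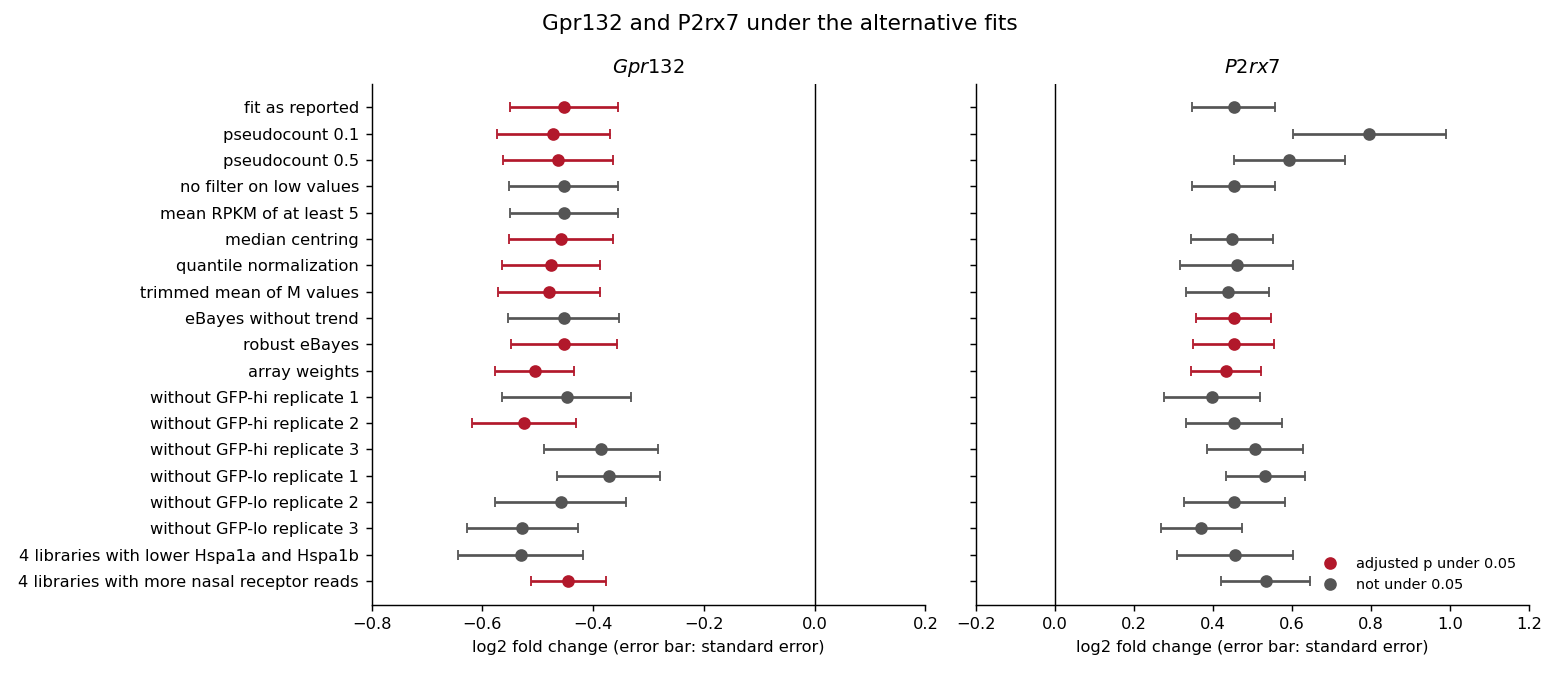
Log2 fold change of Gpr132 (left) and P2rx7 (right) in the fit as reported and in each alternative fit, with the standard error; red points have a limma adjusted p under 0.05. Gpr132 stays negative in all 18 alternatives and is called in 9, P2rx7 stays positive in all 17 that tested it and is called in 3; the filter at 5 RPKM leaves P2rx7 out.

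The pattern over the 6 libraries was also compared between genes, as a description. The genes closest to S1pr1 by Pearson's r of log2(RPKM + 1) were Spata2 (r = 0.991), Sh3bp1 (0.989) and Dhx38 (0.986). The genes closest to Gpr132 were Ddx3x (r = 0.995), Atn1 (0.991) and Hnrnph2 (0.989). An r above 0.95 was reached with S1pr1 by 36 of the tested genes and with Gpr132 by 79, and all values share the same 6 libraries and their depths.

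Related genes were then counted by role. Of 53 further receptors for nucleotides, lysophospholipids, prostanoids, leukotrienes, adenosine and protons, 14 were tested and 0 were called in either direction by limma, with 6 at an unadjusted p under 0.05, where the shares over all tested genes were 3.95% and 20.2%. Groups did not overlap for 8 of the 14, against 26.9% of all tested genes. The median log2 fold change of the 14 was -0.02, and the range ran from -0.50 to 0.62. The most abundant was Tbxa2r, the thromboxane receptor, with 51.2, 61.1 and 48.8 RPKM in GFP-hi and 75.6, 67.4 and 61.9 RPKM in GFP-lo libraries (log2 fold change -0.34, limma, adjusted p = 0.11). It passed in 3 of 18 alternative fits, among them that without the pair low in nasal receptor reads (limma, adjusted p = 0.028).

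Of 37 genes for making, releasing or degrading the ligands, 15 were tested, 0 were higher and 1 was lower, against 2.46% and 1.49% of all tested genes. The median log2 fold change of these 15 was -0.04, and groups did not overlap for 8 of them, against 26.9% of all tested genes. The lower gene was Nt5e, which encodes CD73, the enzyme that turns AMP into adenosine at the cell surface. It had 0.856, 0.770 and 0.629 RPKM in GFP-hi and 1.48, 1.94 and 1.47 RPKM in GFP-lo libraries. Nt5e thus fell by 0.58 on the log2 scale (limma, adjusted p = 0.018), and by 0.76 with a pseudocount of 0.5 and 1.02 with 0.1. The adjusted p rose to 0.065 with GFP-hi 3 left out, to 0.067 with GFP-lo 2 left out and to 0.11 in the 4 libraries with lower heat-shock genes. The GFP-hi mean of Nt5e, 0.752 RPKM, lay under the filter of 1 RPKM, which the gene met through its GFP-lo values.

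Of 46 genes for G proteins, their effectors and receptor desensitization, 34 were tested, 2 were higher and 1 was lower, against the same 2.46% and 1.49%. Their median log2 fold change was 0.04, and groups did not overlap for 8 of the 34, against 26.9% of all tested genes. Pik3r5, a regulatory subunit of the phosphoinositide 3-kinase that G-protein beta-gamma subunits activate, fell from 60.6 ± 4.18 RPKM in GFP-lo to 45.5 ± 1.72 RPKM in GFP-hi (SD, n = 3 each, log2 fold change -0.41, limma, adjusted p = 0.014). Gng2, a G-protein gamma subunit, rose from 5.30 ± 0.224 to 7.02 ± 0.308 RPKM (SD, n = 3 each, log2 fold change 0.35, limma, adjusted p = 0.021). Rgs3, which shortens G-protein signals by speeding GTP hydrolysis, rose from 7.85 ± 0.644 to 11.0 ± 1.28 RPKM (SD, n = 3 each, log2 fold change 0.44, limma, adjusted p = 0.040).

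For all 3 of these genes the GFP-hi and GFP-lo libraries did not overlap, and none of the 3 calls held in every fit with 1 library left out. Across those fits the log2 fold change was -0.45 to -0.35 for Pik3r5, 0.32 to 0.38 for Gng2 and 0.37 to 0.52 for Rgs3. The same fits called 133 to 315 genes in all, against 369 with every library. In the 4 libraries with lower heat-shock genes the limma adjusted p was 0.056 for Pik3r5, 0.082 for Gng2 and 0.068 for Rgs3, so none of the 3 passed there. Pik3r5 lost its call with GFP-hi 1 left out (limma, adjusted p = 0.064) and with GFP-lo 3 left out (0.061). Gng2 lost it on leaving out GFP-hi 1 (limma, adjusted p = 0.087), GFP-hi 3 (0.091), GFP-lo 2 (0.093) or GFP-lo 3 (0.082). Rgs3 kept its call on leaving out GFP-hi 2 (limma, adjusted p = 0.019). Leaving out any other library ended it, with a limma adjusted p of 0.12 for GFP-hi 1 and GFP-hi 3, 0.076 for GFP-lo 1, 0.11 for GFP-lo 2 and 0.13 for GFP-lo 3. With trimmed mean of M values scaling the adjusted p of Rgs3 was 0.059.

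Of 15 genes tied to control of S1pr1 and to lymphocyte egress, 13 were tested, 0 were higher (2.46% of all tested genes) and 1, Il7r, was lower (1.49% of all; log2 fold change -0.80, limma, adjusted p = 0.0022). Il7r, a chain of the receptor for interleukin 7, had 68.1, 66.2 and 57.7 RPKM in GFP-hi and 119, 111 and 105 RPKM in GFP-lo libraries. It was called in all 18 alternative fits, among them the 6 with 1 library left out (limma, adjusted p at most 0.031). Klf2, the transcription factor that drives S1pr1, had 563, 585 and 486 RPKM in GFP-hi and 580, 643 and 544 RPKM in GFP-lo libraries (log2 fold change -0.11, limma, adjusted p = 0.55). Cd69, whose protein binds S1pr1 and removes it from the surface, had 185, 166 and 140 RPKM in GFP-hi and 179, 149 and 139 RPKM in GFP-lo libraries (log2 fold change 0.07, limma, adjusted p = 0.81). The groups overlapped for both genes, as they did for S1pr1. Of the 13 tested genes of this list, 2 had groups without overlap, against 26.9% of all tested genes. Klf2 and Cd69 were named for their known ties to S1pr1, after their values had been seen.

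**Figure D4:**
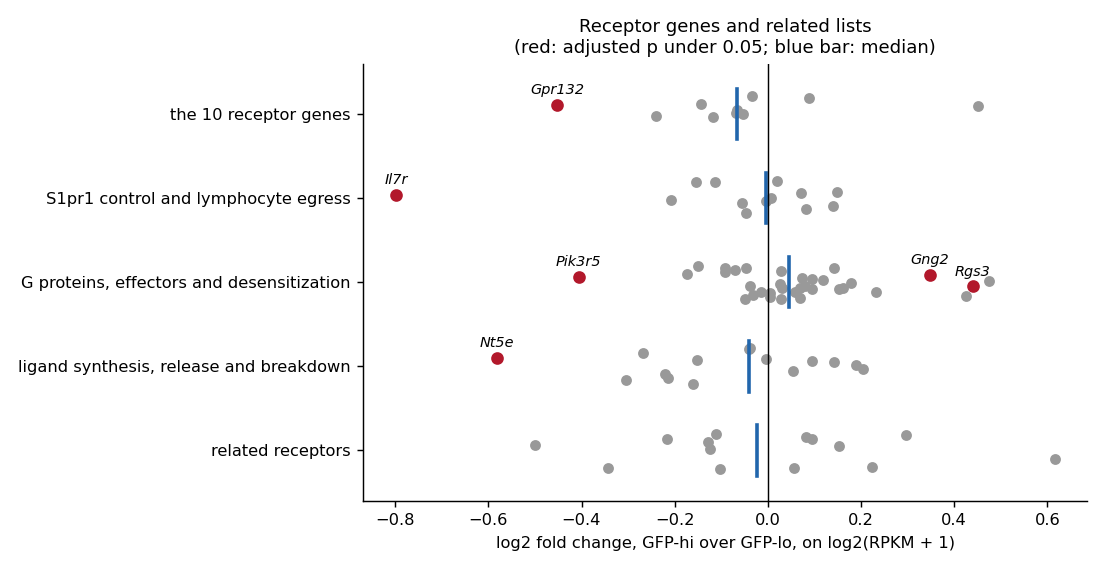
Log2 fold change of GFP-hi over GFP-lo on log2(RPKM + 1) for each tested gene of the 10 receptor genes and of 4 lists of related genes (1 point a gene, spread vertically for legibility; blue bars are medians). Called genes are red and named: Gpr132, Il7r, Pik3r5, Gng2, Rgs3 and Nt5e; the medians lie between -0.07 and 0.04.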

How the data were processed

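Per the labels' protocols, polyA RNA of sorted cells was made into SMART-seq v4 and Nextera XT libraries. The deposited table holds RPKM, 1 column for each sample, per the file headers. STAR and mm10 are named in the submitters' processing notes, without a role or version; the counter, the annotation and the rule for listing genes were not given in the sources used here. Positions and overlaps are from GENCODE M21 (GRCm38, the assembly of mm10).

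Genes with a mean of at least 1 RPKM over the 6 samples (9351 genes; 1811 left out) were fitted with limma 3.58.1 (R 4.3.3) on log2(RPKM + 1), with eBayes with a trend and no covariate. Tests were two-sided with Benjamini-Hochberg adjustment over all genes tested. Depth was recovered from 802 genes with a single GENCODE transcript, as the library size at which low values came closest to whole reads; 85.8% to 89.8% lay within 0.1 of one, against 20% by chance. The fit and the depth search were tested on simulated data. Replicates were numbered by record and the labels tie no number to an animal or sort, so no pairing was used. Alternatives changed the pseudocount, filter, scaling (median, quantile or trimmed mean of M values, with 30% trimmed by ratio and 5% by level), variance model, weights and samples. Named are the receptor genes, called genes of the related lists (or the most abundant gene of a list without calls), and the 3 genes most like S1pr1 and the 3 most like Gpr132, the receptor gene with the smallest p, with genes that overlap a receptor gene. Ptger2, P2ry10b, Klf2, Cd69, Cxcr4 and the marker genes fall outside this rule. A gene of the marker and egress lists is not reported here. The receptor genes, lists and motifs were chosen with earlier results of these data known. Figures were drawn with matplotlib 3.10.9.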

Additional observations from a re-analysis of the deposited data

How the results depend on the processing

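The number of called receptor genes, 1 as reported, was 0 without a filter on low values, 0 with a filter at 5 RPKM, 0 in the 4 libraries with lower heat-shock genes, 2 with robust eBayes and 2 with array weights (Gpr132 and P2rx7 in both). It ran from 0 to 1 when 1 library was left out. In the fits with 0 calls, 1 to 3 receptor genes had an unadjusted limma p under 0.05. The fit without a trend called P2rx7 (limma, adjusted p = 0.043) in place of Gpr132 (0.051). Over all genes, 369 calls became 202 with the filter at 5 RPKM, 1282 with array weights and 101 in the 4 libraries with lower heat-shock genes, and 133 to 315 with 1 library left out. Signs turned for 3 receptor genes with fold changes near 0. For S1pr4 the log2 fold change was 0.045 with array weights, 0.11 without the pair low in nasal receptor reads (GFP-hi 2 and GFP-lo 1), and -0.12 to 0.12 with 1 library left out. For P2ry10 it was 0.061 without that pair, and -0.16 to 0.044 with 1 library left out. For P2rx4 it was -0.17 to 0.0025 with 1 library left out. The causes were not tested. No paired analysis was made. The replicate numbers only follow the order of records, and no label ties a GFP-hi sample to a GFP-lo sample. Whether a paired fit would change a call was not tested. Libraries with the same number did resemble each other in some genes: Hspa1a was high in GFP-hi 2 and GFP-lo 2, Ccr7 in GFP-hi 1 and GFP-lo 1, and Cxcr4 was low in GFP-hi 3 and GFP-lo 3 (5.04 and 4.87 RPKM against 15.1 to 22.6 RPKM). Some receptor genes also kept 1 order of the numbers in both groups. P2rx7, Ptger4 and P2ry10 fell from library 1 to library 3, Gpr174 rose, and Gpr183 was highest in library 1 and lowest in library 2. The order of the other receptor genes differed between the groups. P2rx7 and Gpr174 were not tested with the filter at 5 RPKM. The number of libraries, 3 a group, and the few reads of P2rx7 limit the precision.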
